A study of Brachypodium distachyon and Sorghum bicolor and Panicum virgatum with 44 samples.

Results

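The 45 genes described here are those of Brachypodium distachyon, a small temperate grass used as a model for grass crops, whose transcript level in shoots was at most 0.5 of the unstressed level under drought, cold, submergence and heat alike. They were chosen from 34310 genes by their measured levels. For each gene the mean TPM (a transcript level scaled for gene length and for the total of the library) of 2 replicates was taken per condition, 1 TPM was added, and the stress value was divided by the control value. The members are the genes at a ratio of at most 0.5 in all 4 stresses, so a level below control is what defines them and is given as a description with no test.

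The RNA-seq data came from above ground tissue of the inbred line Bd21, with 2 biological replicates of each of 5 groups. All plants were grown in soil at 20 °C with 20 h of light and 4 h of dark. Control plants stayed under these conditions, and the other groups were stressed from day 21, 10 h after the light came on, for 12 h. Drought plants were taken out of the soil and their roots were dried, which is a fast loss of water rather than a slow drying of soil. Cold plants were moved to 4 °C, heat plants to 40 °C, and submerged plants stood under tap water with 5 cm or more above their tops. The hour at which control plants were sampled is not given in the sources used here, so stress and time of day cannot be told apart if it differed. In whole shoots, fewer cells of a type and less RNA per cell cannot be told apart either. Total counts per library were from 9885330 to 17978714. Cleavage of mRNA was measured in other libraries of the same stresses and of other tissues by PARE (Parallel Analysis of RNA Ends), which reads the 5′ ends of RNA fragments that carry no cap, and was deposited as 1 table of predicted miRNA target sites.

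Plants under abiotic stress are known to lower the transcripts of many genes of growth and primary metabolism while they raise protective ones, and much of this response differs from stress to stress. A transcript level falls when synthesis slows or when decay speeds up, and a miRNA is one route to decay. A plant miRNA pairs almost along its whole length with its target, and the Argonaute protein that carries it cuts the target opposite the middle of the miRNA. The cut leaves a 3′ fragment with an uncapped end, which is what PARE reads. The genes are named by their Bd v3.1 identifiers, in which the digit after Bradi is the chromosome, and few of them had an annotation in the sources used here.

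Being low in all stresses was rare. A ratio of at most 0.5 was reached by 650 genes under heat, 1052 under submergence, 1910 under cold and 5685 under drought. A further 321 genes reached it in exactly 3 stresses. Of those, 188 missed it in heat, 72 in cold, 58 in submergence and 3 in drought. Because of the added 1 TPM, a member needs a control mean of at least 1 TPM, which 21076 genes had. All 4 ratios of a gene share the same 2 control libraries, so a high control library lowers all of them together.

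The members spanned a wide range of control levels, from 1.32 to 3796 TPM with a median of 14.2 TPM. The median over the 21076 genes that could qualify was 12.9 TPM. There were 9 members under 5 TPM in control, 17 from 5 to 20 TPM, 12 from 20 to 100 TPM and 7 above 100 TPM. In 43 of the 45 members all 8 stress libraries lay below both control libraries, a pattern that 7.06% of the qualifying genes had; the rule used these libraries, so the count is a description. The exceptions were Bradi2g19690, at 4.58 TPM in control 1 and 5.28 TPM in drought 2, and Bradi4g08059, which was listed at 0 in control 1 and in every stress library and at 2.65 TPM in control 2.

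**Figure D1:**
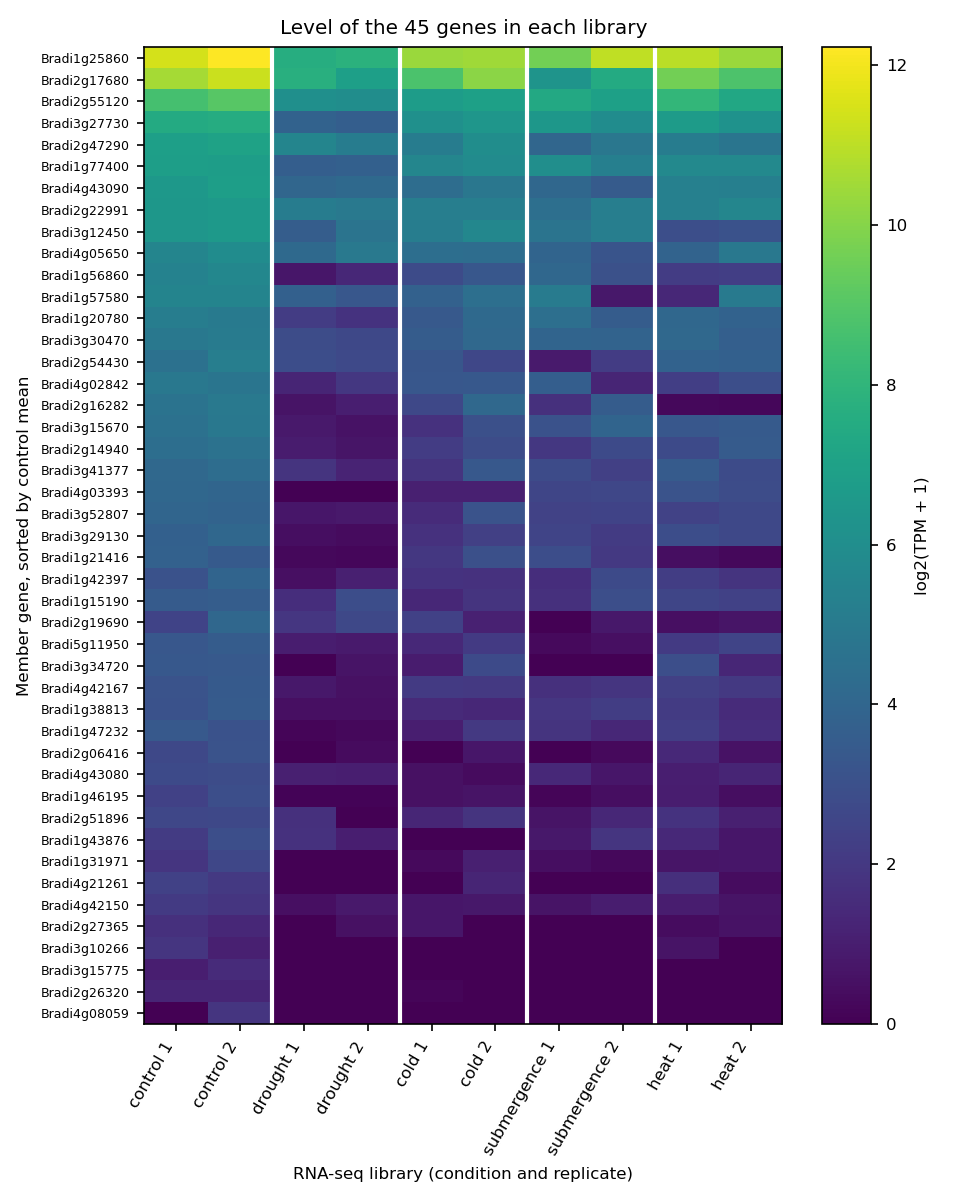
Level of each of the 45 members (rows, sorted by control mean) in each of the 10 RNA-seq libraries (columns), as log2(TPM + 1) by colour. The 2 control columns are the brightest in 43 rows, and the drought columns are the darkest block, with 10 and 8 members at 0.

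Summed over the 45 genes, the level was 5876 TPM in control 1 and 9065 TPM in control 2, which is 0.588% and 0.906% of all transcripts. The sum was 665 and 611 TPM in drought, 2217 and 3158 TPM in cold, 1423 and 2725 TPM in submergence, and 3457 and 2393 TPM in heat. Drought was the lowest in both libraries, and the other 3 stresses overlapped one another. Most of the sum came from 2 genes. The other 43 genes together gave 1563 and 1839 TPM in control, 267 and 273 TPM in drought, 471 and 627 TPM in cold, 557 and 459 TPM in submergence, and 701 and 581 TPM in heat, so drought was again the lowest without the 2 most abundant genes.

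The most abundant member was Bradi1g25860, annotated with the Thi4 family domain. This family holds the enzyme that makes the thiazole moiety of thiamin (vitamin B1), and the yeast enzyme is known to give up a sulfur atom of its own in the reaction. It stood at 2812 and 4780 TPM in control, 193 and 221 TPM in drought, 1317 and 1426 TPM in cold, 786 and 2091 TPM in submergence, and 1973 and 1357 TPM in heat. Every stress library was below both controls, drought lay far below the rest, and the other stresses overlapped. By mean TPM it ranked 19 of all genes in control, 794 in drought, and 68, 54 and 56 in cold, submergence and heat. The ratio to control was 0.0548 in drought and 0.361, 0.379 and 0.439 in cold, submergence and heat. Without control 2 the gene is no longer a member, nor is it without submergence 1 or without heat 2.

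Bradi2g17680, with no annotation in the sources used here, was the second most abundant, at 1500 and 2445 TPM in control. It was at 206 and 117 TPM in drought, 430 and 1105 TPM in cold, 79.7 and 175 TPM in submergence, and 783 and 454 TPM in heat. Here drought and submergence were low together and overlapped, and cold and heat stood above both. Its rank went from 42 in control to 1303 in submergence, 1116 in drought, 155 in heat and 131 in cold. Without control 2 or without cold 1 it is not a member.

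Both of these genes carry a predicted miRNA site with PARE reads, and the miRNAs are shown here because they belong to the 2 members that make up most of the summed level. Capitals mark the seed, bases 2 to 8 from the 5′ end.
miR5281a and miR5281b, site in Bradi1g25860: uCUUAUAAauaggaacggagg
miR9487, site in Bradi2g17680: cCUUGUUCgauugcaagauga

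The other 6 of the 8 most abundant members differed in the order of the stresses. In Bradi2g55120, Bradi3g27730 and Bradi1g77400 drought was lowest. Bradi3g27730 was at 177 and 190 TPM in control, 13.6 and 11.4 TPM in drought, 68.4 and 84.5 TPM in cold, 86.7 and 61.5 TPM in submergence, and 105 and 73.0 TPM in heat. Bradi1g77400 was at 115 and 109 TPM in control, 11.5 and 12.4 TPM in drought, 48.6 and 58.1 TPM in cold, 64.0 and 38.3 TPM in submergence, and 53.6 and 52.8 TPM in heat. In both genes drought was clear of all other libraries and the other stresses overlapped near the limit of the rule. Bradi2g55120 was at 391 and 524 TPM in control, 67.6 and 63.1 TPM in drought, 108 and 121 TPM in cold, 163 and 124 TPM in submergence, and 269 and 158 TPM in heat. In TPM its means ran upward from drought through cold and submergence to heat, with overlap only between submergence and heat. In the edgeR fit described below, cold and submergence were not told apart (log2 difference 0.17 ± 0.25 SE, edgeR adjusted p = 0.622).

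In Bradi2g47290 and Bradi4g43090 submergence had the lowest mean. Bradi2g47290 was at 119 and 130 TPM in control, 46.5 and 33.6 TPM in drought, 34.6 and 61.8 TPM in cold, 15.4 and 27.8 TPM in submergence, and 33.7 and 25.5 TPM in heat. Submergence lay below drought and cold and overlapped heat. Bradi4g43090 was at 91.8 and 115 TPM in control, 15.1 and 17.4 TPM in drought, 19.7 and 28.1 TPM in cold, 16.2 and 10.5 TPM in submergence, and 38.8 and 37.6 TPM in heat. Heat was the highest stress in this gene, and drought and submergence overlapped. Bradi2g22991 was at 88.4 and 95.2 TPM in control, 33.7 and 29.5 TPM in drought, 37.1 and 36.7 TPM in cold, 21.3 and 37.0 TPM in submergence, and 39.5 and 48.5 TPM in heat. Its stress libraries ran from 21.3 to 48.5 TPM with submergence 1 the lowest. It was called higher in cold than in submergence (log2 difference 0.85 ± 0.24 SE, edgeR adjusted p = 0.0175) and lower in submergence than in heat (-0.69 ± 0.23, edgeR adjusted p = 0.0387). The first call was lost in 6 of 11 alternative settings, among them those without cold 1, cold 2 or submergence 1. The second was lost in 7 of 11, among them those without submergence 1 or heat 2. Over these settings the log2 difference ran from 0.36 to 1.23 in the first contrast and from -1.08 to -0.40 in the second.

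**Figure D2:**
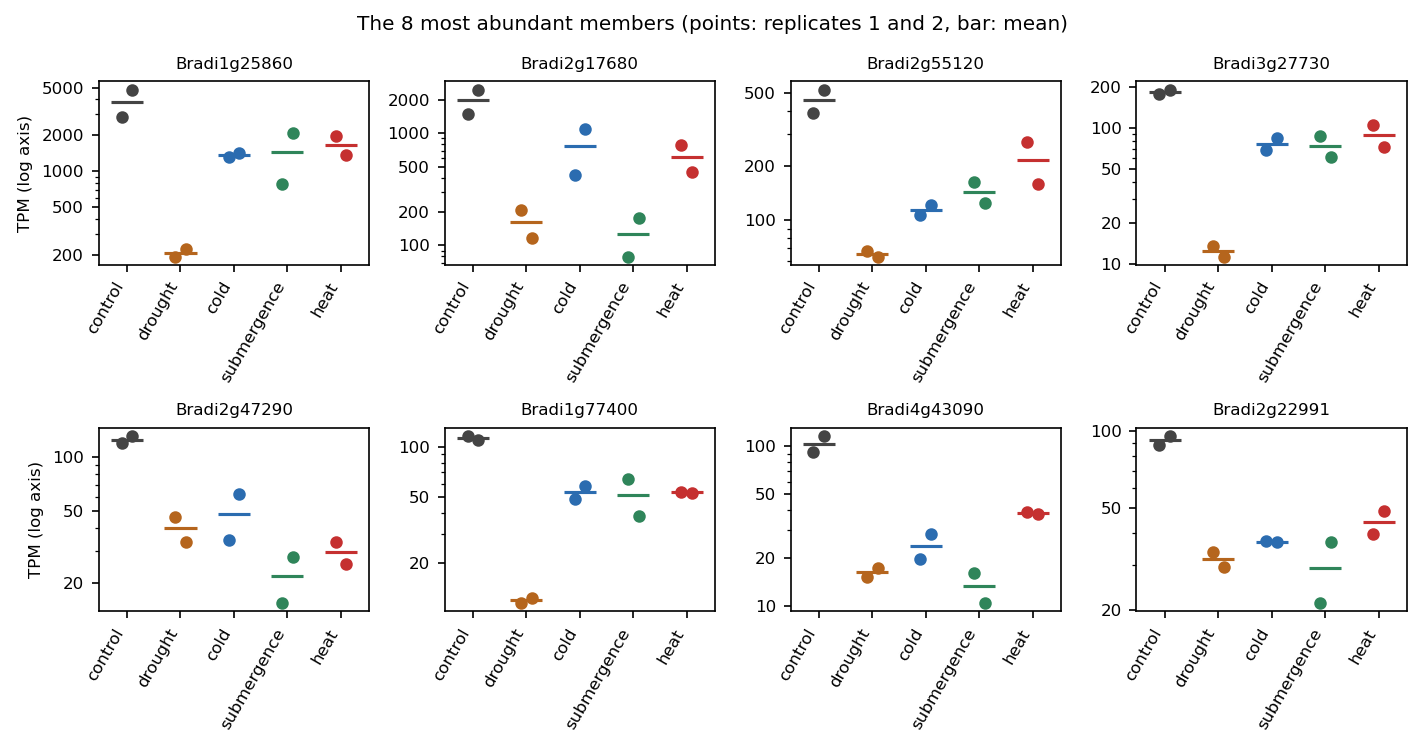
TPM (log axis) of the 8 members of highest control level in control, drought, cold, submergence and heat, with replicates 1 and 2 as points and their mean as a bar. In Bradi1g25860, Bradi3g27730 and Bradi1g77400 drought stands apart (means 207, 12.5 and 12.0 TPM), while in Bradi2g17680 drought and submergence are both low (161 and 128 TPM).

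The members with the lowest mean ratio over the 4 stresses were mostly not the most abundant ones. Bradi1g56860 had the lowest, a mean log2 ratio of -3.03. It was at 41.6 and 49.5 TPM in control, 0.69 and 1.60 TPM in drought, 5.92 and 8.95 TPM in cold, 15.8 and 7.30 TPM in submergence, and 3.48 and 3.87 TPM in heat. No stress library came near the controls, and by TPM drought was the lowest of all. In the edgeR fit described below, drought and heat were not told apart in this gene (log2 difference -1.29 ± 0.55 SE, edgeR adjusted p = 0.0583). Bradi2g16282 was at 24.1 and 30.2 TPM in control, 0.57 and 1.06 TPM in drought, 5.29 and 16.7 TPM in cold, 2.24 and 10.9 TPM in submergence, and 0.19 and 0.15 TPM in heat. Its heat ratio of 0.0416 was the lowest of any member in heat, but its cold replicates differed widely and it is not a member without cold 1.

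Bradi1g21416 had the same shape at a lower level, with 13.0 and 10.1 TPM in control, 0.18 and 0.17 TPM in drought, 2.94 and 6.89 TPM in cold, 6.47 and 3.02 TPM in submergence, and 0.35 and 0.18 TPM in heat. Drought and heat were both close to 0 in these libraries, and cold and submergence were in between. Bradi4g03393 was at 15.8 and 15.0 TPM in control, at 0 in both drought libraries, and at 1.08 and 1.12 TPM in cold, 4.94 and 4.98 TPM in submergence, and 7.73 and 6.08 TPM in heat. By TPM its 4 stresses did not overlap and were ordered drought, cold, submergence, heat. The order rests on few reads, with 0 counts in each drought library, 2 in each cold library, 8 and 9 in submergence and 15 in each heat library. Drought against cold (edgeR adjusted p = 0.0594), cold against submergence (0.0505) and submergence against heat (0.308) were not called. Drought against submergence, drought against heat and cold against heat were called. Bradi2g14940 was at 20.3 and 23.1 TPM in control, 0.92 and 0.64 TPM in drought, 3.47 and 6.06 TPM in cold, 2.89 and 5.67 TPM in submergence, and 5.73 and 10.3 TPM in heat. Bradi2g06416 was at 5.25 and 7.84 TPM in control and at most 1.69 TPM in any stress library, with 0 listed in drought 1, cold 1 and submergence 1; it had 58 counts over both controls, so its order of stresses rests on few reads.

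Drought gave the lowest ratios. The median ratio of the members was 0.165 under drought, 0.331 under submergence, 0.361 under cold and 0.412 under heat, and over the 21076 qualifying genes it was 0.786, 1.14, 0.827 and 1.09. Among all genes at or under 0.5 with a given stress, the median ratio was 0.337 with drought, 0.416 with submergence, 0.416 with cold and 0.412 with heat. The members' median was below that of all genes within the limit for drought, submergence and cold, and the same for heat. The members were chosen by these same ratios, all of which share the control libraries. Lower medians can follow from that choice, so the comparison is a description and nothing is read from it. A ratio of at most 0.1 was reached by 10 members under drought, 2 under submergence, 2 under heat and 0 under cold. Drought had the lowest mean in 23 members, submergence in 12, cold in 3 and heat in 2, with a tie in 5. Heat had the highest mean in 23 members, cold in 11, submergence in 6 and drought in 3. These orders are of TPM, and the edgeR fit described below scales the libraries in another way. There the median log2 difference over the members tested was 0.14 for cold against heat, so cold was the higher. It was -0.47 for submergence against heat. In 14 of the 23 drought-lowest members the drought ratio was at most 0.5 of the next lowest, and in 15 members the ratios in cold, submergence and heat lay within 0.1 of each other.

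**Figure D3:**
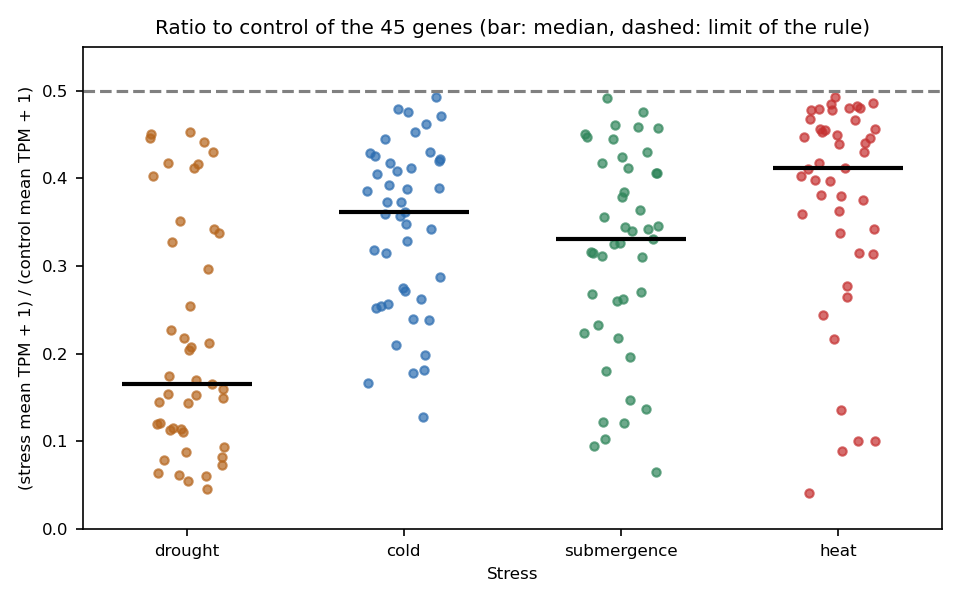
Ratio to control, (stress mean TPM + 1) / (control mean TPM + 1), of each of the 45 members (points) in the 4 stresses, with the median as a bar and the limit of the rule at 0.5 as a dashed line. Drought points reach down to 0.0461 and 30 of 45 lie at or under 0.25, against 8 in cold, 12 in submergence and 7 in heat, where 25 members crowd between 0.4 and the limit.

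At the limit of the rule, the members just inside were Bradi4g21261, with a largest ratio of 0.493, Bradi2g51896 and Bradi1g20780, both at 0.492, and Bradi3g27730 at 0.486. The genes just outside were Bradi3g22342 and Bradi1g75900, both at 0.503, Bradi2g40790 at 0.504 and Bradi2g60270 at 0.505. Bradi1g75900 missed in heat and Bradi2g60270 missed in heat as well, with drought means of 1.01 and 0.82 TPM against control means of 31.6 and 37.3 TPM, so genes of the same shape lie on both sides of the limit. Membership was sensitive to single libraries, since 11 members kept their place whichever of the 10 libraries was left out. These were Bradi1g31971, Bradi1g38813, Bradi1g46195, Bradi1g56860, Bradi2g06416, Bradi2g14940, Bradi2g26320, Bradi3g15775, Bradi4g02842, Bradi4g43080 and Bradi4g43090. Without control 2, 29 of the 45 kept their place, and without control 1, 40 did. Every stress library was at most 0.5 of every control library, by the same ratio, in 8 members. Bradi2g26320 and Bradi3g15775 are in both of these sets but rest on few reads, with 9 and 11 and with 6 and 11 counts in the controls. They were at 0 in 7 and 8 stress libraries and did not pass the filter on low counts described below.

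Some members rested on replicates that did not agree. Bradi1g57580 was at 45.3 and 45.2 TPM in control but at 32.9 and 0.71 TPM in submergence and 1.58 and 31.6 TPM in heat. In each of these stresses 1 library was near control and the other near 0, so its ratio there describes neither. It is not a member without submergence 2 or without heat 1. In 13 members at least 1 stress library was listed at 0, and 5 members had fewer than 20 counts over both controls. Bradi3g15775, at 1.06 and 1.79 TPM in control and 0 in all 8 stress libraries, rested on 6 and 11 counts in the controls.

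The question of which stresses differed from one another in these genes was put to 6 contrasts between stresses, since the rule set the same limit for each stress and did not fix which of them lies lower. edgeR's quasi-likelihood test was run on the counts of 23494 genes that passed a filter on low counts, with p-values adjusted over all of them by Benjamini-Hochberg and a threshold of 0.05. Of the members 38 passed that filter and 7 did not. The rule did use these libraries, and it held every member under the same limit, so the shares of members called are a description and nothing is read from them against the shares of all genes. The filter also counted the control libraries, in which the members are high, and some of the 38 had few reads in the stresses compared.

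In each contrast with drought, more members were called lower in drought than higher. Against cold, 24 of 38 were lower in drought (63.2%, and 28.9% of all genes) and 1 was higher (27.2% of all genes). Against heat, 21 were lower (55.3%, and 35.1% of all genes) and 3 higher (32.5% of all genes), and against submergence 18 were lower (47.4%, and 29.5% of all genes) and 6 higher (29.0% of all genes). Called genes of either direction made up 56.1%, 67.6% and 58.5% of all genes in these contrasts. The median log2 difference over the members tested was -2.09 against cold, -1.44 against heat and -0.99 against submergence, while over all genes it was -0.08, -0.12 and -0.08. Without drought 1, drought 2 or cold 2, the members lower in drought than in cold numbered 15, and without drought 1 those higher numbered 2. Against submergence the 6 higher members became 1 without drought 2 and 3 without drought 1 or submergence 1, and against heat the 3 higher became 1 without heat 1. Fits of the 4 libraries of a contrast alone used a filter that saw no control. Of the members tested there, 21 of 30 were called against cold, 19 of 31 against submergence and 24 of 33 against heat. The share of all genes called in these fits was not taken, so nothing is read from the counts.

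The contrasts among cold, submergence and heat held fewer called members than those with drought. Between cold and submergence 12 members were called, 11 of them higher in cold (28.9%, and 22.4% of all genes) and 1 lower (18.9% of all genes). Between cold and heat 7 were called, 5 higher in cold (13.2%, and 21.6% of all genes) and 2 lower (20.6% of all genes), and between submergence and heat 10, 4 higher in submergence (10.5%, and 18.7% of all genes) and 6 lower (20.3% of all genes). In these contrasts called genes of either direction made up 41.3%, 42.2% and 39.1% of all genes. The direction of the smaller differences depended on scaling: with library size alone the split became 6 higher and 4 lower between cold and submergence, 3 higher and 6 lower between cold and heat, and 3 higher and 18 lower between drought and submergence. That scaling moved the median of all genes by -0.47, -0.43 and -0.48 on the log2 scale in these contrasts. Without cold 2, 7 members were called between cold and submergence, 6 of them higher in cold, and without cold 1 none was lower in cold. Between cold and heat 4 were called without heat 1, all higher in cold, 3 were higher in cold without heat 2, and none was lower in cold without cold 1. In fits of the 4 libraries alone, 6 of 30 members tested were called between cold and submergence, 7 of 35 between cold and heat and 9 of 34 between submergence and heat. Here too the share of all genes called was not taken.

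**Figure D4:**
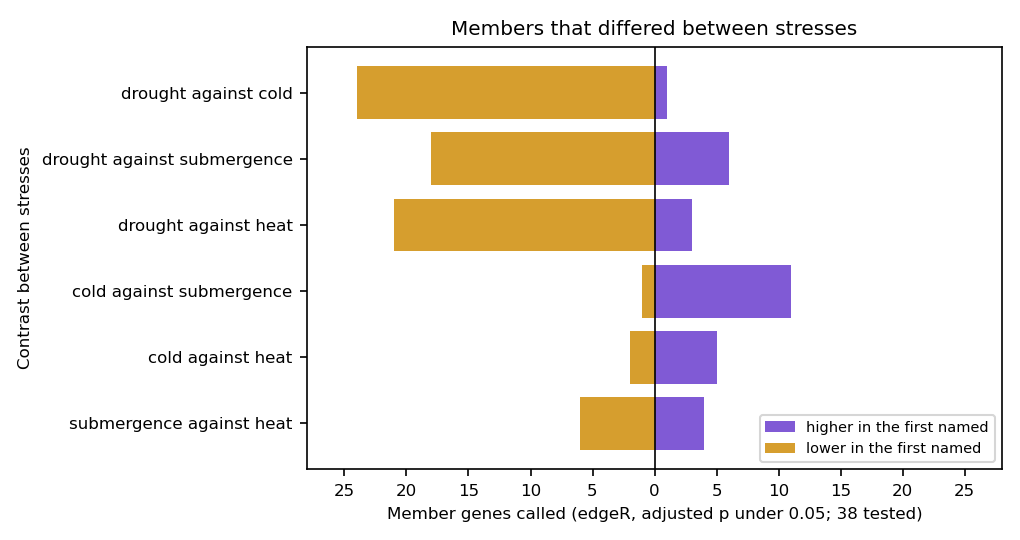
Number of members called by edgeR (adjusted p under 0.05, 38 members tested) in each of the 6 contrasts between stresses, lower in the first named stress to the left of 0 and higher to the right. The 3 drought bars reach 24, 18 and 21 on the lower side, while cold against submergence reaches 11 on the higher side.

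Counting each member once, 33 of the 38 were called in at least 1 contrast between stresses, where 89.1% of all genes were, and 5 in none. Drought was lower than each of the other 3 stresses, with all 3 calls, in 13 members (15.9% of all genes), which were Bradi1g20780, Bradi1g25860, Bradi1g38813, Bradi1g47232, Bradi1g77400, Bradi2g14940, Bradi2g55120, Bradi3g15670, Bradi3g27730, Bradi3g29130, Bradi3g30470, Bradi3g52807 and Bradi4g42167. Without drought 2 the count was 8.

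Bradi1g25860, the Thi4 family gene, was 6.81-fold lower in drought than in cold (log2 difference -2.77 ± 0.43 SE, edgeR adjusted p = 0.000431). The difference was -2.31 ± 0.42 against submergence (edgeR adjusted p = 0.00113) and -2.62 ± 0.42 against heat (edgeR adjusted p = 0.0004). Between cold, submergence and heat it was not called, with log2 differences of at most 0.46 in size and an SE of 0.40 each. Bradi3g27730 showed the same order with a smaller error. Its log2 difference was -2.66 ± 0.24 between drought and cold (edgeR adjusted p = 1.6e-05), -2.45 ± 0.24 between drought and heat (edgeR adjusted p = 1.62e-05) and -2.12 ± 0.23 between drought and submergence (edgeR adjusted p = 5.86e-05). These 6 calls were kept under every alternative tried. Among the other members called lowest in drought, Bradi1g20780 and Bradi1g77400 kept their calls as well. Bradi2g55120 lost the call against submergence in 6 of 11 alternatives and that against cold in 4 of 11. Bradi2g14940 lost the call against submergence in 3 of 11. With 1 library left out the lone library of a stress is assumed to vary like those of the other groups.

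Bradi2g17680 separated the stresses in another way. It was 8.59-fold higher in cold than in submergence (SE of the log2 difference 0.54, edgeR adjusted p = 0.00172) and lower in submergence than in heat by 5.14-fold (-2.36 ± 0.52, edgeR adjusted p = 0.00635). Between drought and submergence the log2 difference was 0.80 ± 0.50 and was not called (edgeR adjusted p = 0.193). Bradi2g47290 was also higher in cold than in submergence, by 1.67 ± 0.31 on the log2 scale (edgeR adjusted p = 0.00239).

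Heat gave the lowest mean in Bradi3g12450, one of 2 such members with Bradi2g16282. In Bradi2g16282 drought and heat were not told apart (log2 difference 2.49 ± 1.69 SE, edgeR adjusted p = 0.214). That gene had 1 count in each heat library and 2 and 4 counts in drought. Bradi3g12450 was at 83.8 and 96.9 TPM in control, 11.0 and 24.9 TPM in drought, 34.7 and 50.1 TPM in cold, 24.9 and 36.1 TPM in submergence, and 6.69 and 7.52 TPM in heat. The heat libraries lay below all others. It was 7.92-fold higher in cold than in heat (log2 difference 2.99 ± 0.37, edgeR adjusted p = 0.000245) and 4.00-fold higher in submergence than in heat (2.00 ± 0.37, edgeR adjusted p = 0.00261). Bradi1g56860 was lower in drought than in submergence (log2 difference -2.86 ± 0.51, edgeR adjusted p = 0.00101) and higher in cold than in heat by 1.42 ± 0.41 on the log2 scale (edgeR adjusted p = 0.0201). The second call was lost with library size scaling (edgeR adjusted p = 0.0547), without cold 2 (0.107), without heat 1 (0.0958) and without heat 2 (0.062).

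Only 4 members had a protein domain in the annotation used here, which covers 1123 genes. Apart from the Thi4 gene these were Bradi1g15190, a cytochrome P450, Bradi1g42397, with the domain named for salt stress response and antifungal activity, and Bradi1g31971, with leucine rich repeats. Cytochrome P450 enzymes are heme oxygenases that act in hormone and secondary metabolism, and leucine rich repeats are common in plant receptor proteins. Bradi1g15190 was at 10.3 and 11.3 TPM in control, 2.02 and 6.42 TPM in drought, 1.61 and 2.59 TPM in cold, 2.29 and 6.54 TPM in submergence, and 4.93 and 4.09 TPM in heat. Cold was low in both libraries, while drought and submergence each had 1 library above heat. Bradi1g42397 was at 7.46 and 14.3 TPM in control, 0.43 and 1.14 TPM in drought, 2.47 and 2.38 TPM in cold, 2.02 and 5.66 TPM in submergence, and 3.62 and 2.54 TPM in heat. Bradi1g31971 was at 2.70 and 5.07 TPM in control, at 0 in both drought libraries, 0.26 and 1.14 TPM in cold, 0.37 and 0.20 TPM in submergence, and 0.62 and 0.68 TPM in heat.

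Other annotated genes of the same kinds went both ways. Of 24 tested genes of secondary metabolism and redox, drought was called lower than control in 10 and higher in 4, cold 2 and 2, submergence 7 and 3, and heat 0 and 1. Of 74 tested protein kinases and receptors, drought was lower in 20 and higher in 30, cold 7 and 15, submergence 10 and 18, and heat 11 and 3. Each of these groups held 1 member. No member was among 74 annotated transcription factors, 35 transport genes, 23 lipid and wax genes, 20 cell cycle and chromatin genes, 16 cell wall and growth genes or 5 photosynthesis and plastid genes. These groups are small and the 45 members were 0.131% of all genes, so nothing is read from the absence of members there. Over all 1099 annotated and tested genes, drought was lower in 357 and higher in 420, cold in 72 and 145, submergence in 218 and 185, and heat in 118 and 81. Over all 23494 genes tested, 32.8% were lower and 32.1% higher with drought, 9.63% and 12.2% with cold, 16.6% and 14.9% with submergence, and 8.7% and 8.21% with heat. These comparisons share the control libraries.

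The members were more often short, and more often had 1 annotated transcript, than the qualifying genes. Their median length was 1233 bases against 1803 bases over the 21076 qualifying genes, and they ran from 252 to 2961 bases. Under 1000 bases were 20 members (44.4%) and 15.5% of the qualifying genes, and 36 members (80%) had 1 annotated transcript, as did 67.8% of those genes. Short genes collect fewer reads at a given TPM, and the part of this in the choice of members was not tested. The 7 members that did not pass the filter on low counts were all in the short class, at 252 to 945 bases. The identifiers place 13 members on chromosome 1, 12 on chromosome 2, 10 on chromosome 3, 9 on chromosome 4 and 1 on chromosome 5, beside 28.9%, 22.2%, 22.1%, 17.1% and 9.69% of all genes. Bradi4g43080 and Bradi4g43090 are listed next to each other, and Bradi4g42150 and Bradi4g42167 have 3 genes between them. Bradi4g43080 was far lower than its neighbour, at 5.80 and 6.11 TPM in control, 1.11 and 1.01 TPM in drought, 0.47 and 0.30 TPM in cold, 1.63 and 0.68 TPM in submergence, and 1.01 and 1.37 TPM in heat, with cold the lowest. RSEM divides reads among genes of similar sequence, and whether these neighbours resemble each other was not tested. Across the 45 members, Spearman's rho between control level and the mean log2 ratio was -0.40, a description over genes that share their libraries and a ratio that 1 added TPM holds up in low genes.

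The table of predicted target sites asked whether a miRNA could cut these transcripts and whether PARE reads began at the predicted position. A site is at Level 0 with no read there, and at 1 plus the number of criteria it passes otherwise. The criteria are an abundance of at least 10 TP10M (the study's unit, reads scaled to a fixed total), a rank among the top 2 positions of the transcript, and a fraction of at least 20% of all PARE abundance on that transcript. The last limit is the one the deposited levels follow; the methods name 10%, and no site of a member reaches either. A predicted site was listed for 19 members (42.2%), and for 15107 of all 34310 genes and 50.8% of the qualifying genes. At least 1 PARE read at such a site was listed for 10 members (22.2%), and for 21.0% of all genes and 31.5% of the qualifying genes. Level 2 was reached by 1 member (2.22%, beside 1.76% and 2.28%), and Level 3 or 4 by 0 members (0.554% and 0.631%). The members' shares lay near or below those of the other genes at each step up to Level 2. The table gives 1 value and 1 library name per site, with no replicates and no read total behind the value.

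The 19 genes held 25 distinct sites, of which 12 had a read, 11 at Level 1 and 1 at Level 2. Their median abundance was 1 TP10M and the highest was 20 TP10M. The study's prediction allowed a psRNATarget expectation of up to 5 and a TargetFinder score of up to 4, where higher values mean poorer pairing. Among the sites whose miRNAs are shown, the expectation was 3 for miR5281 and 3.5 for miR9489. It was 4 for miR9487, 4.5 for miR2275a, and 5 for miR5200, miR395e-5p and miR159c. TargetFinder listed only the sites of miR9487 and miR9489 among these, both at 4. The miRNAs of the other 4 of the 6 sites of highest abundance (ties by share) are shown here, again with the seed in capitals, and miR159c is added because it shares its seed with miR2275a.
miR9489, site in Bradi1g15190: uCAGCUCCacggacuugguga
miR5200a-3p and miR5200b-3p, site in Bradi4g02842: uGUAGAUAcucccuaaggcuu
miR2275a, site in Bradi4g42150: uUUGGUUUccuccaaugucuca
miR395e-5p, site in Bradi1g15190: gUUCUCCUcaaaucacuucagu
miR159c, site in Bradi1g57580: uUUGGUUUgaagggggcucug

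The Level 2 site was that of miR9487 at position 1301 of Bradi2g17680.1, with 20 TP10M, which passed the abundance criterion. It was 0.104% of all PARE abundance on that transcript, and the library named for it is a panicle library that is not a sample of this series. The site of miR5281a and miR5281b at position 1449 of Bradi1g25860.1 had 2 TP10M, 0.0761% of the abundance of the transcript, and was named for drought 2. In both abundant genes the reads at the predicted cut were thus a very small part of all fragments. The miR9489 site at position 753 of Bradi1g15190.1 had 5 TP10M and 4.13% in a leaf library, and the miR5200a-3p and miR5200b-3p site at position 42 of Bradi4g02842.1 had 5 TP10M and 5.88% in a stem library. Neither of these libraries is a sample of this series. The miR395e-5p site at position 1382 of Bradi1g15190.1 had 1 TP10M and 0.521% and was named for drought 2.

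miR5200 is known in Brachypodium and its relatives for cutting FT flowering transcripts, but nothing in the sources used here names Bradi4g02842 as one of them. That gene was at 29.1 and 25.9 TPM in control, 1.38 and 2.96 TPM in drought, 8.90 and 9.43 TPM in cold, 11.4 and 1.44 TPM in submergence, and 3.77 and 6.56 TPM in heat. All stress libraries were at or under 11.4 TPM, and the submergence replicates held the highest and the second lowest of them. Bradi4g42150, with the miR2275a site at position 2597, had 1 TP10M and 2.27% in control 2, and stood at 3.24 and 2.68 TPM in control and from 0.42 to 1.00 TPM in the stress libraries. miR2275 is known in grasses for starting phased small RNA production in anthers. miR159, whose known targets are MYB transcription factors, had predicted sites in 4 members, of which the miR159c site at position 540 of Bradi1g57580 had a read, 1 TP10M in heat 2. The sites in Bradi4g05650 and Bradi1g38813 were for miR159a-5p and miR159b-3p.2, whose seeds differ from that of miR159c. miR395, known for sulfate metabolism, had sites in 3 members, and all of these were for its 5p strand. miR159c and miR2275a share the seed UUGGUUU, which thereby occurs in 3 members, and the seed UAGGUAU of miR5163a-3p in 2. Otherwise each seed was found in 1 member. The shares of all genes with a site for these families or seeds were not taken, so nothing is read from the counts.

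**Figure D5:**
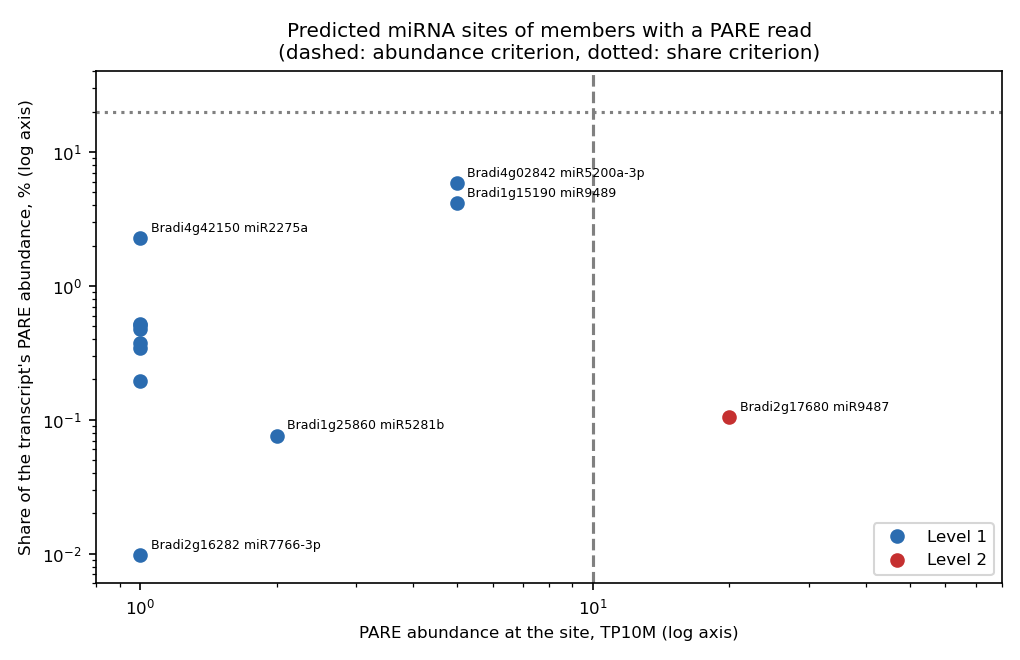
PARE abundance in TP10M (horizontal, log axis) against its percentage of all PARE abundance on that transcript (vertical, log axis) for the 12 sites with a read, coloured by Level, with the abundance criterion at 10 TP10M dashed and the share limit that the deposited levels follow, 20%, dotted. The miR9487 site of Bradi2g17680 at 20 TP10M is the 1 point past a line, and no site comes above 5.88%.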

How the data were processed

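The authors mapped RNA-seq reads to Brachypodium distachyon v3.1 with STAR 2.5.3a and deposited RSEM 1.2.31 expected counts and TPM per gene. From the deposited site table (PARE reads mapped with Bowtie 0.12.7) the abundance, given in TP10M rounded to whole numbers and used as a score, the rank, the share as a fraction and the level were taken, with psRNATarget expectation and TargetFinder score.

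TPM set the members. Expected counts (13.3% to 15.6% of values not whole) were rounded, filtered by filterByExpr, scaled by TMM (factors 0.825 to 1.22) and fitted in edgeR 4.0.16 (R 4.3.3), 10 libraries in 1 fit, with Benjamini-Hochberg adjustment. P-values set the difference between groups against the spread between replicates, which was pooled over the 5 groups and moderated across genes. SE is the log2 difference over the square root of F. Alternatives were DESeq2 1.42.0, other scalings, filters, pseudocounts, a replicate block and left-out libraries. The rule and fit were tested on simulated data.

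The members and lists were chosen with earlier results of these data known. Named genes were the 8 of highest control level, the 8 of lowest mean ratio, the 6 sites of highest abundance, 4 on each side of the limit, the 2 largest called differences per contrast at 5 CPM or more, and annotated ones; Bradi1g57580, Bradi2g19690, Bradi4g08059, Bradi3g15775, Bradi1g42397, Bradi4g43080 and the genes listed in counts were named after their values were seen. Same-numbered libraries did not deviate together (correlations from -0.174 to 0.137). The RefSeq gene table matched none of the identifiers, so no promoter or protein is shown.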

Additional observations from a re-analysis of the deposited data

How the results depend on the processing

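The number of members depended strongly on the rule's own settings. It was 204 with a pseudocount of 0.1 TPM, 14 with 5 TPM, 12 at a ratio of at most 0.4, 147 at 0.6, and 8 when every stress library was set against every control library. It ranged from 33 to 66 with 1 library left out, and on TMM scaled CPM it was 38, of which 27 were shared. With 1 library left out, called members ranged from 16 to 24 between drought and cold, 16 to 21 between drought and submergence, 18 to 23 between drought and heat, 7 to 12 between cold and submergence, 4 to 6 between cold and heat and 9 to 12 between submergence and heat, and members lower in drought than in each other stress (a count added after the data were seen) from 8 to 13. With the 4 libraries of the contrast alone, 6 were called between cold and submergence. With the replicate block the counts were 24, 24, 24, 13, 8 and 11, in the order of the contrasts above, and 13 for drought below all others; the replicate numbers only name the libraries. Members with a PARE read fell from 10 to 4 at 2 TP10M or more, and members at Level 2 from 1 to 0 without libraries of other series. Of 601 refits of calls on named genes, 523 kept the call, 78 lost it and 0 changed direction.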
